A study of Rattus norvegicus with 3 samples.

Results

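The 10 genes of the arterial wall matrix followed here in rat thoracic aorta were the collagen chains Col1a1, Col5a1 and Col15a1, the elastic fibre genes Eln and Lox, the adhesive glycoproteins Fn1, Tnc and Lamc1, and the small proteoglycans Dcn and Bgn. Their probe sets were taken from the deposited array table wherever the platform annotation gave exactly 1 gene symbol and that symbol was one of the 10. This gave 26 probe sets of the 8799 in the table, and 10 genes of the 4736 that have a probe set with 1 symbol. Total RNA came from Sprague Dawley rats given, over 20 days, allylamine (35 mg/kg in one group and 70 mg/kg in another) or water (1 ml/kg, the control group). Each of the 3 groups had 1 array, so no difference below has a replicate check, a test or an error between animals. The labels used here do not say if the RNA on an array was pooled over animals, nor do they give sex or age.

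The wall of the aorta is a stack of elastic layers and smooth muscle cells held together by fibrillar collagen. Smooth muscle cells and adventitial fibroblasts make most of this matrix, secrete it as soluble chains and crosslink it outside the cell. Fibronectin and tenascin C are abundant in growing and healing tissue, laminins form basement membranes, and decorin and biglycan bind collagen fibrils. Allylamine is an amine that amine oxidase in vascular smooth muscle turns into acrolein and hydrogen peroxide, and it is used to injure heart and arteries in animals.

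Values below are intensities scaled so that the 3 arrays have the same median. A probe set counted as measured in a comparison when it lay above a floor on both arrays, set at 188.3, the 40th percentile of the scaled intensities. A gene's log2 difference is the median over its measured probe sets, and genes past 2-fold, a log2 difference of 1, are called higher or lower below. Of the 26 matrix probe sets, 17 lay above the floor on all 3 arrays, 2 on 2 arrays, 3 on 1 array and 4 on none. All 10 genes had at least 1 measured probe set in each of the 3 comparisons.

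The arrays differed in ways that the groups do not name. The labelled bacterial and phage control transcripts exceeded their control-array brightness by a median factor of 3.81 for 35 mg/kg and 28.8 for 70 mg/kg, over 9 probe sets. The 3' over 5' signal ratio of cytoskeletal actin, a sign of RNA quality, stood at 0.376 (control array), 0.542 (35 mg/kg array) and 1.42 (70 mg/kg array). The same ratio for GAPDH, a second such sign, was 0.175 in control, 0.318 for 35 mg/kg and 0.226 for 70 mg/kg, which is not the order of dose. Apart from actin at 70 mg/kg, the 5' signal was the brighter in all of these ratios, so no order of RNA quality is read from them. Across all genes, 2 measured probe sets of the same gene had differences of the same sign in 52.9% of 730 pairs for 70 mg/kg over control, 54.6% of 832 pairs for 35 mg/kg over control and 52.0% of 833 pairs between the doses. These shares lie little above an even split of signs. Over 8740 probe sets, log2 intensities had a Pearson correlation of 0.70 between 35 mg/kg and control. It was 0.48 between 70 mg/kg and control and 0.59 between the doses. The range of log2 intensities without the outermost values was 6.58 in control, 6.16 at 35 mg/kg and 5.22 at 70 mg/kg. The part of these array properties in the differences below was not tested.

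Against control, matrix genes lay on both sides at 70 mg/kg. Of the 10 genes, 3 were at least 2-fold higher (Col1a1, Fn1 and Tnc) and 4 at least 2-fold lower (Lamc1, Bgn, Col5a1 and Col15a1). For comparison, 19.7% of all 2462 genes measured there were at least 2-fold higher and 23.2% at least 2-fold lower. The median difference of the matrix genes was 0.09, beside -0.06 over all genes, and their median size without regard to sign was 1.31, beside 0.84. The 10 genes were chosen with earlier results of these data known. A larger size or share than over all genes, at either dose, can therefore come from that choice and is no test. With the values as deposited the matrix median was -0.36, because Lox moved from 0.51 to -0.55 as a further Lox probe set passed the floor. With the scaling kept and the floor at the 25th percentile the matrix median was -0.51, and with quantile normalization it was 0.07. Its sign therefore turns with the Lox probe sets that pass the floor.

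At 35 mg/kg, 4 matrix genes were at least 2-fold higher than control (Dcn, Fn1, Tnc and Col1a1) and 3 at least 2-fold lower (Col15a1, Col5a1 and Eln). Over the 2606 genes measured there, 16.8% were higher and 16.3% lower by that rule. The matrix median was 0.23, beside 0.04 over all genes, and the median size was 1.17, beside 0.69. Both doses were set against the same control array, so the values that Col1a1, Fn1, Tnc, Col5a1 and Col15a1 share between the doses are not independent.

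Between the doses, 1 matrix gene (Eln) passed 2-fold upward at 70 mg/kg and 3 (Bgn, Lamc1 and Dcn) passed it downward. Over 2459 genes, 14.4% were higher and 20.9% lower. With the values as deposited, no matrix gene was 2-fold higher and the same number, 3, were 2-fold lower, because Eln at 35 mg/kg then lay below the floor. The matrix median was -0.03 and that of all genes -0.06, and the median size was 0.67, below the 0.72 of all genes. The matrix median between the doses was -0.70 with the values as deposited and 0.24 with quantile normalization. With the values as deposited, Eln dropped out and Lox moved from 0.50 to -0.70 as a further Lox probe set passed the floor. The sign of this median therefore depends on the scaling and on the probe sets that pass the floor. In an aortic extract, fewer cells of one type and less RNA per cell cannot be told apart.

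**Figure D1:**
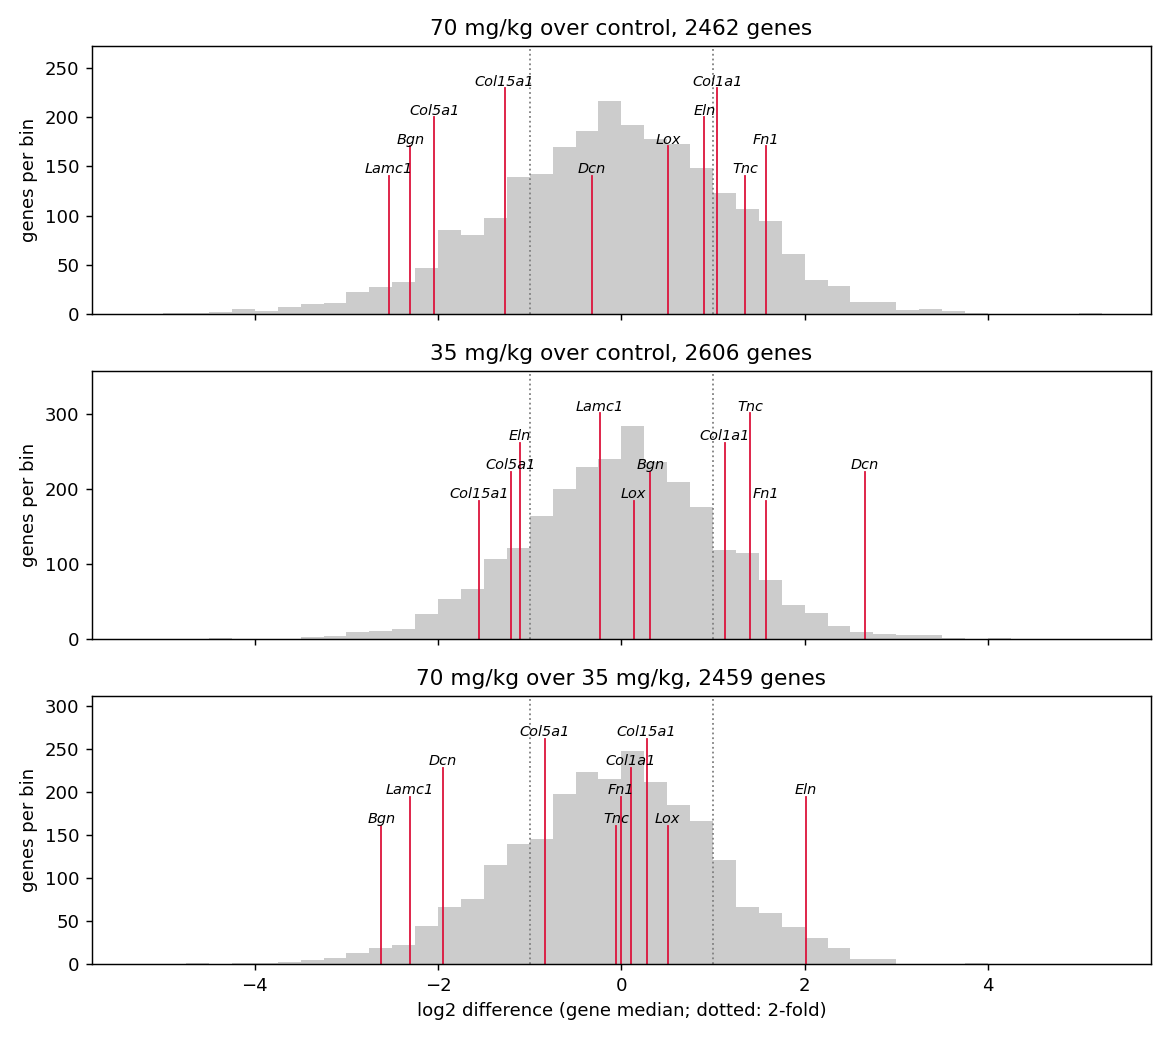
Distribution of the log2 difference over all measured genes (grey bars, genes per bin of the horizontal axis) in each of the 3 comparisons, with the 10 matrix genes drawn as red lines and the 2-fold limits dotted. Lamc1, Bgn and Col5a1 lie far to the left at 70 mg/kg over control, Dcn lies far to the right at 35 mg/kg over control, and Eln stands alone on the right between the doses.

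Among the 17 matrix probe sets above the floor on every array, the control array held the lowest value of the 3 in 9, the 35 mg/kg array in 2 and the 70 mg/kg array in 6. The 9 include all 4 Col1a1 probe sets and 2 Fn1 probe sets of the same sequence, so they are not independent. The highest value lay on the control array in 4, on the 35 mg/kg array in 8 and on the 70 mg/kg array in 5. Over all 2612 such probe sets with 1 symbol, the lowest value lay on the control array in 34.3%, on the 35 mg/kg array in 25.1% and on the 70 mg/kg array in 40.6%. The highest value of these lay on the control array in 33.7%, on the 35 mg/kg array in 34.9% and on the 70 mg/kg array in 31.5%.

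Promoter sequence was matched by gene ID for 4 of the 10 genes, in RefSeq's GRCr8 rat assembly. These 4 are shown because they are the members with an entry in the promoter table, and they do not stand for the patterns of the other members. Against control, Tnc was higher at both doses, Col5a1 and Col15a1 were lower at both, and Lamc1 was lower at 70 mg/kg. Each run is the 250 bases before the annotated start, 5′ to 3′ on the gene's strand. Capitals mark 3 motifs on either strand. The TATA box was searched as TATAAA. The CCAAT box was searched by the 5 letters of its name. The GC box was searched as GGGCGG.
Tnc, chr5:82476132-82476381, minus strand: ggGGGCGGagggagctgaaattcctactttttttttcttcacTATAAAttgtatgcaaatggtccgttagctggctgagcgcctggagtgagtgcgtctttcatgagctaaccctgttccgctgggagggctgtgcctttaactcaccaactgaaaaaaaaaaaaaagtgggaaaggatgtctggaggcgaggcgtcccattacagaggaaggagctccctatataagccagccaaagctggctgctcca
Col5a1, chr3:31606630-31606879, plus strand: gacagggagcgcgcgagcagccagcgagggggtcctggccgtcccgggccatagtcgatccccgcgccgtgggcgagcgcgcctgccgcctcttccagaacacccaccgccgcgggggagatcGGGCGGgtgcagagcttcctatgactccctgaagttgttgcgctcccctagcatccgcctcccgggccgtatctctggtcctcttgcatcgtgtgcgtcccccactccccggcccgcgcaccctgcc
Col15a1, chr5:66297296-66297545, plus strand: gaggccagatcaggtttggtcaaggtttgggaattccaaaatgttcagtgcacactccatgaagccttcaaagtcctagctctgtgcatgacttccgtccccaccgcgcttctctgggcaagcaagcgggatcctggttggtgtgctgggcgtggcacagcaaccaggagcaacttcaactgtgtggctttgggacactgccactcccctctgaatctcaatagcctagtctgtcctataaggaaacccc
Lamc1, chr13:68051987-68052236, minus strand: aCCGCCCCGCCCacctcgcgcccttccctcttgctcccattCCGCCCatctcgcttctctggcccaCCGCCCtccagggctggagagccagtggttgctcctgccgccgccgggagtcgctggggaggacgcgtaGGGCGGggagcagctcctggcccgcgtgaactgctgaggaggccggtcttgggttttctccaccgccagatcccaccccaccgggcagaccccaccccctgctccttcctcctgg

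The Lamc1 window held 5 GC boxes, of which a pair share a base, and the Col5a1 and Tnc windows held 1 each. The Tnc window held 1 match to TATAAA, whose first base lies at -208 counted from the start, and none of the 4 windows held a CCAAT box. Close variants of TATAAA, such as tatataag near the end of the Tnc window, were not searched. Over 33469 promoters of the same length, 30.5% held a GC box, 12.9% a TATA box and 34.0% a CCAAT box. The windows of Col5a1 (71.6% G and C) and Lamc1 (71.2%) were richer in G and C than the median promoter (51.2%), while Col15a1 (54%) and Tnc (49.6%) lay near it. These matches describe the letters of the windows only.

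Col1a1 encodes the alpha 1 chain of type I collagen, the main fibrillar collagen of the arterial wall. All 4 of its probe sets lay above the floor on every array and lowest on the control array. The probe set M27207mRNA_s_at read 338 in control aorta, 947 at 35 mg/kg and 8777 at 70 mg/kg. The probe set rc_AI231472_s_at read 572 in control, 1537 at 35 mg/kg and 1436 at 70 mg/kg. These 2 place the larger signal in the dosed aortas, but they disagree on whether the higher dose added to it.

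The other two Col1a1 probe sets, Z78279_at and Z78279_g_at, come from the same sequence and may share probes. Z78279_at read 778 in control, 1388 at 35 mg/kg and 977 at 70 mg/kg. Z78279_g_at read 877.5 in control, 1208 at 35 mg/kg and 1490 at 70 mg/kg. Col1a1 as a gene was higher by 1.05 at 70 mg/kg over control (SD 1.99 between 4 probe sets) and by 1.13 at 35 mg/kg over control (SD 0.49). The larger SD at 70 mg/kg comes with M27207mRNA_s_at, whose rank on its array stood at the 56.8th percentile for control, the 83.1st for 35 mg/kg and the 99.7th for 70 mg/kg. Between the doses the gene differed by 0.10, with its probe sets from -0.51 to 3.21.

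Col5a1, a chain of the type V collagen that nucleates fibrils of type I collagen, had 1 probe set. It read 1863 in control, 809 at 35 mg/kg and 452.5 at 70 mg/kg, which is a stepwise order downward with dose. The differences were -2.04 at 70 mg/kg over control, -1.20 at 35 mg/kg over control and -0.84 between the doses. At 70 mg/kg over control, 10.4% of all measured genes had a difference of larger size.

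Col15a1 encodes a collagen of basement membrane zones, and it too had 1 probe set. It read 2043 in control, 698 at 35 mg/kg and 845 at 70 mg/kg, so both dosed arrays lay well below the control array and close to one another. The differences were -1.27 at 70 mg/kg over control, -1.55 at 35 mg/kg over control and 0.28 between the doses. The fibril-nucleating and basement membrane chains therefore lay on the other side of control from the type I chain, each on a single probe set.

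Elastin (Eln), the core protein of the elastic layers, had 1 probe set, which lay on opposite sides of control at the 2 doses. It read 412 in control, 191 at 35 mg/kg and 772 at 70 mg/kg. The value at 35 mg/kg was just above the floor of 188.3. The differences were 0.91 at 70 mg/kg over control, -1.11 at 35 mg/kg over control and 2.02 between the doses, and 7.16% of all genes differed more between the doses. With the values as deposited Eln reached 1.06 at 70 mg/kg over control, past 2-fold, and had no measured value at 35 mg/kg.

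Lysyl oxidase (Lox) oxidises lysines of collagen and elastin so that the chains crosslink. Of its 4 probe sets, S77494_s_at read 691 in control, 693 at 35 mg/kg and 983 at 70 mg/kg. The probe set rc_AI234060_s_at read 672 in control, 806 at 35 mg/kg and 179 at 70 mg/kg, where it was below the floor. This is a decrease of at least 3.57-fold at 70 mg/kg relative to control, while S77494_s_at was higher by 0.51. The last pair lay below the floor on all 3 arrays, rc_AA875582_at at 127.5 in control, 51.1 at 35 mg/kg and 51.5 at 70 mg/kg. S66184_s_at ranged between 19 and 77.7. At 35 mg/kg the 2 measured Lox probe sets were close to control, at 0.00 and 0.26. At 70 mg/kg the gene value of 0.51 became -0.55 with the values as deposited, since rc_AI234060_s_at then passed the floor, so no direction is given for Lox at this dose.

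**Figure D2:**
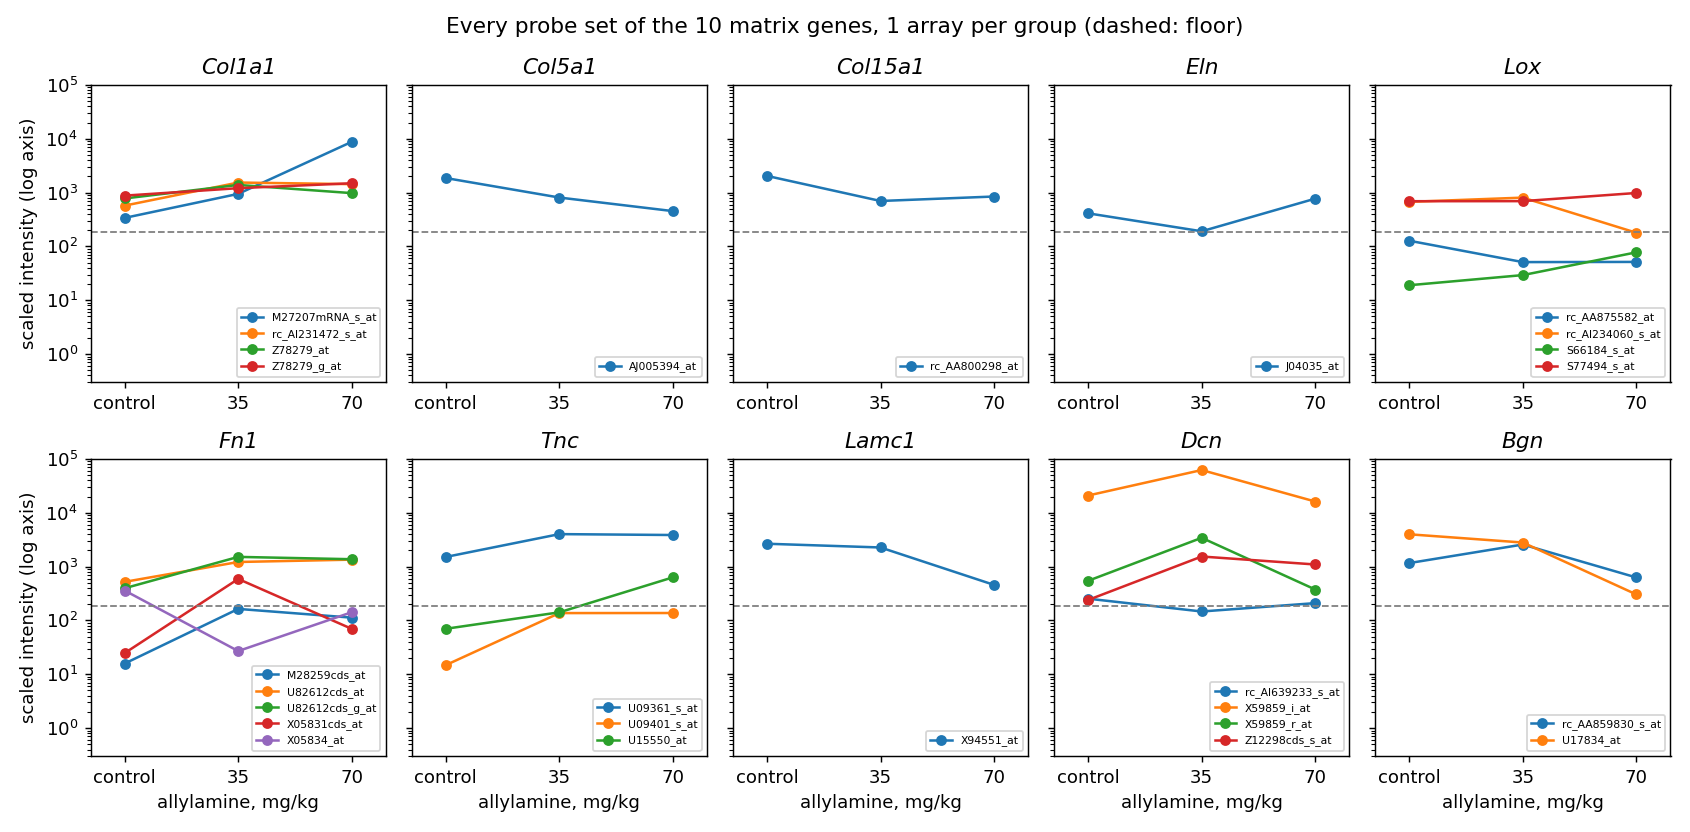
Scaled intensity (log axis) of every probe set of the 10 matrix genes on the control, 35 mg/kg and 70 mg/kg arrays, 1 point per array, with the floor of 188.3 dashed. All 4 Col1a1 lines start lowest in control, the Dcn lines that pass the floor on every array peak at 35 mg/kg, and the Lamc1 and Bgn lines end lowest at 70 mg/kg.

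Fibronectin (Fn1) is the adhesive glycoprotein that cells bind through integrins and on which collagen is laid down. Its 2 measured probe sets come from the same sequence and may share probes. U82612cds_at read 521 in control, 1219 at 35 mg/kg and 1348 at 70 mg/kg. U82612cds_g_at read 396 in control, 1516 at 35 mg/kg and 1372.5 at 70 mg/kg. Both dosed arrays lay above control in both probe sets, and the doses lay close together. The gene was higher by 1.58 at 70 mg/kg over control (SD 0.30 between 2 probe sets) and by 1.58 at 35 mg/kg over control (SD 0.50), and it differed by 0.00 between the doses.

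The other 3 Fn1 probe sets did not all go the same way. X05831cds_at read 24.7 in control, 590 at 35 mg/kg and 69.7 at 70 mg/kg. The 35 mg/kg value exceeded control by at least 3.13-fold, and the other two arrays were below the floor. X05834_at read 359.6 in control, 27 at 35 mg/kg and 142 at 70 mg/kg. It was at least 1.91-fold lower at each dose than in control. M28259cds_at stayed below the floor, at 15.8 in control, 164 at 35 mg/kg and 113 at 70 mg/kg. The Fn1 values over control therefore rest on the 2 probe sets of 1 sequence.

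Tenascin C (Tnc) is a glycoprotein that modulates cell adhesion to fibronectin. The probe set U09361_s_at read 1512 in control, 4017 at 35 mg/kg and 3866 at 70 mg/kg, a difference of 1.35 at 70 mg/kg and 1.41 at 35 mg/kg over control. U15550_at read 70 in control, 142 at 35 mg/kg and 633 at 70 mg/kg. The 70 mg/kg value exceeded control by at least 3.36-fold. U09401_s_at was below the floor throughout, at 14.8 in control, 137 at 35 mg/kg and 137.4 at 70 mg/kg. Only U09361_s_at was measured on every array, so the Tnc differences rest on that probe set.

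Lamc1 encodes the gamma 1 chain shared by most laminins. Its 1 probe set read 2661 in control, 2268 at 35 mg/kg and 457 at 70 mg/kg. Control and 35 mg/kg lay close together (-0.23), and 70 mg/kg lay far below both. The differences of -2.54 at 70 mg/kg over control and -2.31 at 70 mg/kg over 35 mg/kg were exceeded in size by 4.83% and 3.82% of all measured genes.

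Decorin (Dcn), which binds collagen fibrils and limits their width, had the largest difference of the matrix genes at 35 mg/kg. X59859_i_at read 20940.2 in control, 62304 at 35 mg/kg and 16182 at 70 mg/kg. X59859_r_at, from the same sequence, read 545 in control, 3429 at 35 mg/kg and 375.5 at 70 mg/kg. Both peak at 35 mg/kg and are lowest at 70 mg/kg. Z12298cds_s_at read 240 in control, 1541 at 35 mg/kg and 1096 at 70 mg/kg, so it also peaked at 35 mg/kg but stayed high at 70 mg/kg.

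The fourth Dcn probe set, rc_AI639233_s_at, read 254 in control, 147 at 35 mg/kg and 209.8 at 70 mg/kg, close to the floor on each array and at least 1.35-fold lower at 35 mg/kg than control. Dcn as a gene was higher by 2.65 at 35 mg/kg over control (SD 0.63 between 3 probe sets), a size exceeded by 1.61% of genes. At 70 mg/kg over control it differed by -0.32, and its 4 probe sets ran from -0.54 to 2.19 (SD 1.30). For 70 over 35 mg/kg it differed by -1.94, with 3 probe sets from -3.19 to -0.49. Under the mean of probe sets in place of the median, the 70 mg/kg difference from control was 0.25, so its sign depends on that choice.

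Biglycan (Bgn), the close relative of decorin in the class of leucine-rich proteoglycans, had 2 probe sets. U17834_at read 3987 in control, 2802 at 35 mg/kg and 304 at 70 mg/kg. The probe set rc_AA859830_s_at read 1164 in control, 2575 at 35 mg/kg and 628 at 70 mg/kg. Both were lowest at 70 mg/kg, and they differ in whether control or 35 mg/kg is highest. Bgn differed by -2.30 at 70 mg/kg over control (2 probe sets, at -3.71 and -0.89) and by -2.62 at 70 mg/kg over 35 mg/kg (SD 0.83), and by 0.32 at 35 mg/kg over control (SD 1.17). Both proteoglycans were thus lower at 70 than at 35 mg/kg in every measured probe set, 3 of Dcn and 2 of Bgn. The remaining Dcn probe set, rc_AI639233_s_at, below the floor at 35 mg/kg, went the other way, at least 1.11-fold higher at 70 mg/kg.

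**Figure D3:**
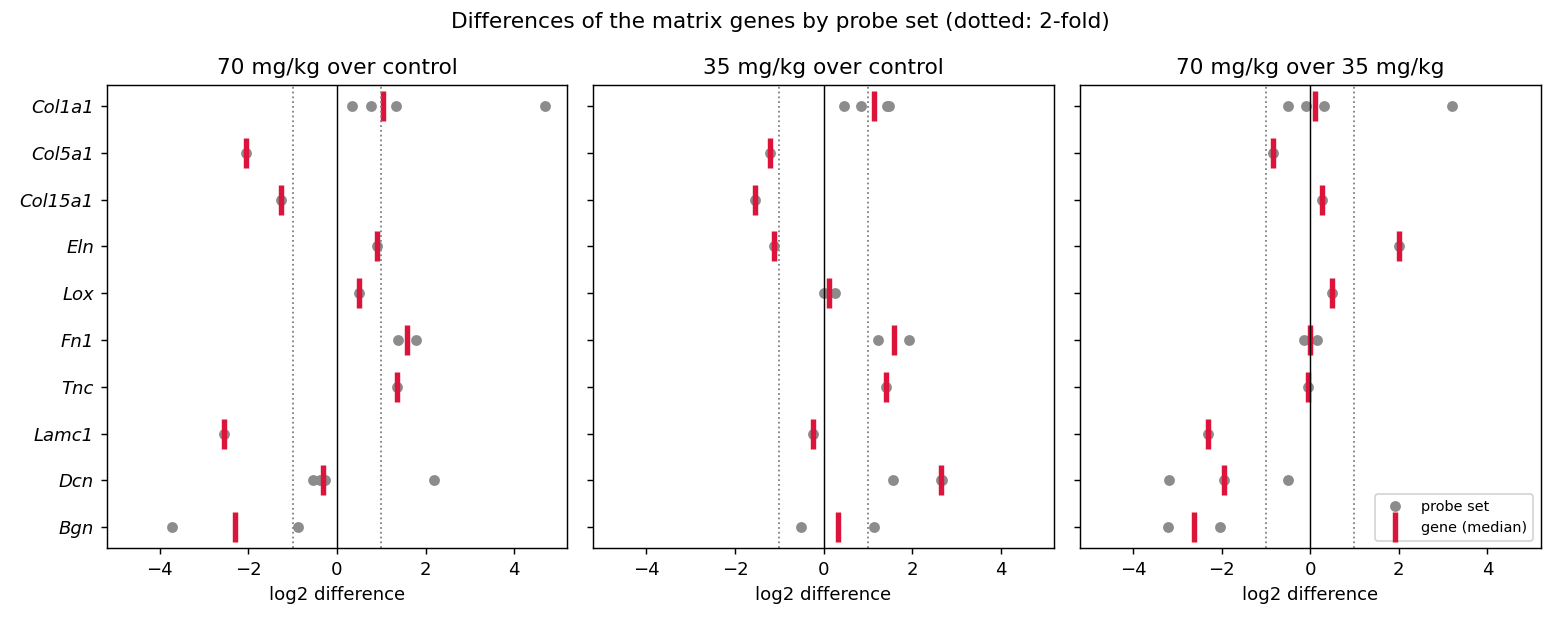
Log2 difference of each measured probe set (grey points) and of each gene (red bars, the median of its probe sets) in the 3 comparisons, with 2-fold dotted. Fn1 and Tnc lie near 0 between the doses and above 2-fold over control at both, while a single Col1a1 probe set (4.70) and a single Dcn probe set (2.19) stand far from the rest of their gene at 70 mg/kg over control.

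Where a matrix gene had several measured probe sets, pairs of them had the same sign in 11 of 14 pairs at 70 mg/kg over control, 11 of 12 at 35 mg/kg over control and 6 of 11 between the doses. Over all genes the shares were 52.9%, 54.6% and 52.0% in that order. Pairs among the 4 Col1a1 probe sets, all of the same sign over control, make up a large part of the agreeing pairs there. Pairs within a gene are not independent, and some come from the same sequence. Over all genes with several measured probe sets, the median SD between them was 0.91 at 70 mg/kg over control, 0.73 at 35 mg/kg over control and 0.83 between the doses. Against this spread, Fn1 (1.58) and Tnc (1.35) at 70 mg/kg exceeded it, as did Lamc1, Bgn, Col5a1, Col15a1 and Col1a1, but Col1a1, Dcn and Bgn had a larger SD of their own there.

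Outside the 10 genes, the matrix was described by 9 lists of collagens, elastic fibre genes, processing enzymes, glycoproteins, proteoglycans, laminins, proteases, receptors and inducing signals. Leaving out the 10, 9 of 56 listed genes measured at 70 mg/kg over control were at least 2-fold higher and 9 lower (16.1% each), below the 19.7% and 23.2% of all genes. At 35 mg/kg over control, 5 of 59 were higher (8.47%) and 11 lower (18.6%), beside 16.8% and 16.3%. Between the doses 7 of 53 were higher (13.2%) and 11 lower (20.8%), close to the 14.4% and 20.9% of all genes.

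Of the collagens, 7 were measured at 70 mg/kg over control, 2 higher and 3 lower, with a median of -0.73. Beyond the members, Col10a1, the collagen of hypertrophic cartilage, read 3478 in control, 2133 at 35 mg/kg and 1032 at 70 mg/kg on its brightest probe set, a difference of -1.75 at 70 mg/kg over control. Col5a2, the partner chain of Col5a1 in type V collagen, read 336.5 in control, 360.4 at 35 mg/kg and 783 at 70 mg/kg, a difference of 1.22. The 2 type V chains therefore lay on opposite sides of control at 70 mg/kg. Col3a1, the type III chain that mixes with type I in the wall, was at 0.82 on 2 probe sets (0.03 to 1.61).

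In the elastic fibre list, 1 of 4 measured genes was higher at 70 mg/kg over control and 0 were lower, with a median of 0.88. Fibulin 5 (Fbln5), needed to assemble elastic fibres, read 268 in control, 169.5 at 35 mg/kg (below the floor) and 676 at 70 mg/kg, which is the same order as Eln. Ltbp2, a fibrillin-binding protein, was at 0.86 for 70 mg/kg and 1.74 for 35 mg/kg over control, on 1 of its 2 probe sets. Ltbp1, which holds latent TGF-beta in the matrix, was at -0.20 for 70 mg/kg and -0.61 for 35 mg/kg. Of the processing enzymes, 0 of 4 were past 2-fold either way at 70 mg/kg. The elastin crosslinking enzyme Loxl1 read 605 in control, 3019.7 at 35 mg/kg and 423.5 at 70 mg/kg on its brightest probe set, with the gene at -0.35 at 70 mg/kg and 1.52 at 35 mg/kg over control. P4hb, a subunit of collagen prolyl hydroxylase, was at -0.88 at 70 mg/kg, and the catalytic subunit P4ha1 at 0.04.

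In these lists Lamc1, at -2.54 for 70 mg/kg over control, is counted under laminins and not under adhesive glycoproteins. The shares over all genes were 19.7% higher and 23.2% lower at 70 mg/kg over control, and 16.8% and 16.3% at 35 mg/kg. Adhesive glycoproteins had 3 of 8 measured genes higher and 0 lower at 70 mg/kg over control, and 2 of 8 higher and 3 lower at 35 mg/kg. Fn1 and Tnc account for 2 of the 3, and the third was thrombospondin 4 (Thbs4), at 217 in control, 248.5 at 35 mg/kg and 505 at 70 mg/kg (1.22). The collagen-binding glycoprotein Sparcl1 was at -0.43 for 70 mg/kg and -1.36 for 35 mg/kg over control. Mgp, an inhibitor of calcification, was at -0.22 for 70 mg/kg and -0.36 for 35 mg/kg. Of 3 measured laminin chains, 2 were lower and 0 higher at 70 mg/kg over control. Beside Lamc1, the chain Lama1 read 1038 in control, 379.8 at 35 mg/kg and 197 at 70 mg/kg (-2.40). Lama3 was at 0.33.

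Proteoglycans had 2 of 14 measured genes higher and 4 lower at 70 mg/kg over control, with a median of -0.52. Cspg4, the NG2 proteoglycan of pericytes and smooth muscle, read 206 in control, 906 at 35 mg/kg and 1128 at 70 mg/kg (2.45). The cell surface proteoglycan syndecan 3 (Sdc3) read 2720 in control, 700.2 at 35 mg/kg and 564.5 at 70 mg/kg (-2.27). Fibromodulin (Fmod), which shares collagen binding with decorin, was at 1.29 at 70 mg/kg over control on 1 of its 2 probe sets.

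Matrix proteases and their inhibitors had 1 of 9 measured genes higher and 1 lower at 70 mg/kg over control. Timp1, which blocks matrix metalloproteinases, read 716 in control, 1331 at 35 mg/kg and 247 at 70 mg/kg, a difference of -1.53 at 70 mg/kg, 0.89 at 35 mg/kg and -2.43 between the doses. Timp1 was measured on 1 of its 2 probe sets. Its peak at 35 mg/kg and low point at 70 mg/kg follow the order seen for Loxl1 and 2 of the Dcn probe sets. The stromelysin Mmp3 was at 1.18 and Mmp11 at 0.96. Among the matrix receptors, 1 of 3 was higher and 0 lower: the collagen receptor chain Itga1 was at 1.91 and the laminin receptor chain Itga7 at 0.83. The control value of Itga1, 199.7, was just above the floor.

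Signals that induce matrix had 2 of 14 genes higher and 3 lower at 70 mg/kg over control. The growth factor chain Pdgfb was at 1.64 on 1 of its 2 probe sets, and the angiotensin receptor Agtr1a at -1.29 on 1 of its 4. The receptor Pdgfra was at -2.93 on rc_AI232379_at, which read 3459 in control, 1488 at 35 mg/kg and 453 at 70 mg/kg. Another Pdgfra probe set, Z14118cds_g_at, went the other way, with 185 in control (below the floor), 418 at 35 mg/kg and 737 at 70 mg/kg.

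**Figure D4:**
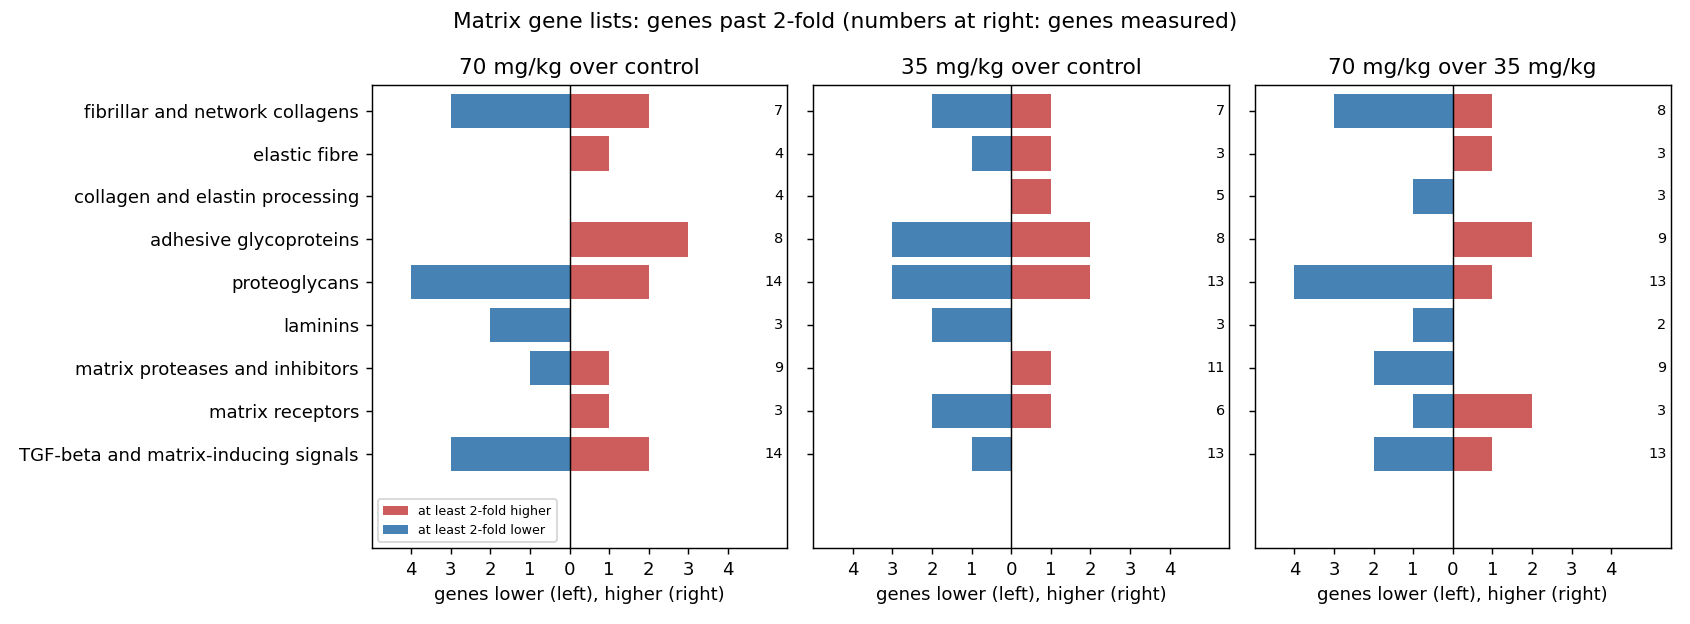
Number of genes at least 2-fold higher (red, right) and lower (blue, left) in each matrix gene list, members included, in the 3 comparisons, with the number of genes measured at the right edge. Adhesive glycoproteins, without Lamc1, have 3 higher and 0 lower at 70 mg/kg over control. Laminins, with Lamc1, have 2 lower and 0 higher.

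Markers of the cells in and around the aortic wall also differed between arrays. Of 10 smooth muscle markers 7 were on the array, and 6 lay above the floor in control, 4 at 35 mg/kg and 6 at 70 mg/kg, with summed intensities of 5726, 3963 and 7960 in that order. By gene differences, 2 of 5 measured smooth muscle markers were higher at 70 mg/kg over control and 0 lower, with a median of -0.02. At 35 mg/kg over control 1 of 4 was higher and 1 lower, with a median of -0.61. Of 8 fibroblast markers 6 were on the array, with 5, 6 and 5 above the floor and summed intensities of 6001 in control, 5475 at 35 mg/kg and 4261 at 70 mg/kg. Without the Pdgfra probe set rc_AI232379_at, the brightest of the list, the fibroblast sums were 2543, 3987 and 3808, lowest in control. The median of the 3 fibroblast markers measured at 70 mg/kg over control was 0.16, with 0 higher and 1 lower.

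Fat markers, 9 of 10 on the array, summed to 15334 in control, 13223 at 35 mg/kg and 7492 at 70 mg/kg. They had 5, 7 and 8 genes above the floor in that order, and the leptin (Lep) probe set D49653_s_at alone read 8513 in control, 4266 at 35 mg/kg and 243 at 70 mg/kg. Without it the fat sums were 6821, 8957 and 7249, so the downward order with dose is that of this probe set. Of 5 fat markers measured at 70 mg/kg over control, 1 was higher and 2 lower, with a median of -0.21. Cartilage and bone markers, 6 of 8 on the array with 4 above the floor on each, summed to 5517 in control, 3885 at 35 mg/kg and 2421 at 70 mg/kg. Without the brightest probe set, of Col10a1, these sums were 2039, 1752 and 1388, and of 2 such markers measured at 70 mg/kg over control 1 was lower and 0 higher. Endothelial markers summed to 3590, 6713 and 7125, leukocyte markers to 5298, 4151 and 7255, striated muscle markers to 5722, 5006 and 4821, and nerve markers to 3679, 5725 and 7811 on the control, 35 and 70 mg/kg arrays. Leaving out the brightest probe set turned the order of the dosed arrays for striated muscle (4745, 2968 and 3602) but not for endothelial, leukocyte or nerve markers. By gene differences at 70 mg/kg over control, 1 of 4 measured endothelial markers was higher and 0 lower, with a median of 0.18. Of 4 leukocyte markers 0 were higher and 1 lower (median 0.31), and of 4 nerve markers 1 was higher and 1 lower (median 0.67). Of 6 striated muscle markers 0 were higher and 1 lower (median -0.06). Among the measured genes, most did not rise 2-fold where the endothelial, leukocyte and nerve sums were larger. These gene differences leave out probe sets below the floor on one of the arrays, which the sums include. Kdr read 91.9 in control and 1791 at 70 mg/kg, and the Cd74 probe set X13044_at read 26.1 and 960.5. Cd8a went the other way, at 850.5 and 108.6. The gene differences therefore do not cover all of the change in the sums. All deposited intensities were above 0. The part of cell makeup in the matrix differences was not tested.

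The genes nearest to a matrix gene over the 2 differences from control were found among 2118 genes, by distance on the log2 scale. This was done for the 8 members whose measured probe sets share a sign in both of these comparisons. Lox and Fn1 are among them, though each has a probe set, below the floor on a dosed array, that went the other way. The Lox neighbours rest on a 70 mg/kg value for which no direction is given above. Dcn and Bgn were left out because their measured probe sets differ in sign in one of the comparisons. The distance ranks 2 differences from 3 arrays, so it describes likeness in these arrays only. Within a distance of 0.25 lay 28 genes for Col1a1, 25 for Tnc, 13 for Fn1, 20 for Col15a1, 17 for Col5a1, 57 for Lox, 4 for Eln and 2 for Lamc1. The nearest were Abat and Nr5a1 to Col1a1, Ranbp17 and Zdhhc5 to Tnc, and Huwe1 and Cd55 to Fn1. Cpsf7 and Ripor1 were nearest to Col5a1, Mrpl45 and Ralb to Col15a1, and Il1rap and Grm7 to Lox. Pgam2 (0.91 at 70 mg/kg and -1.15 at 35 mg/kg over control) and Klk1c9 (0.94 and -1.08) were nearest to Eln, and Gas6 (-2.72 and -0.10) and Hadha (-2.32 and -0.15) to Lamc1. Few genes lay near Eln and Lamc1. These counts also depend on how densely genes lie at that distance from 0, so they do not mark a pattern as particular to a gene. None of the nearest genes named here was in the matrix lists.

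**Figure D5:**
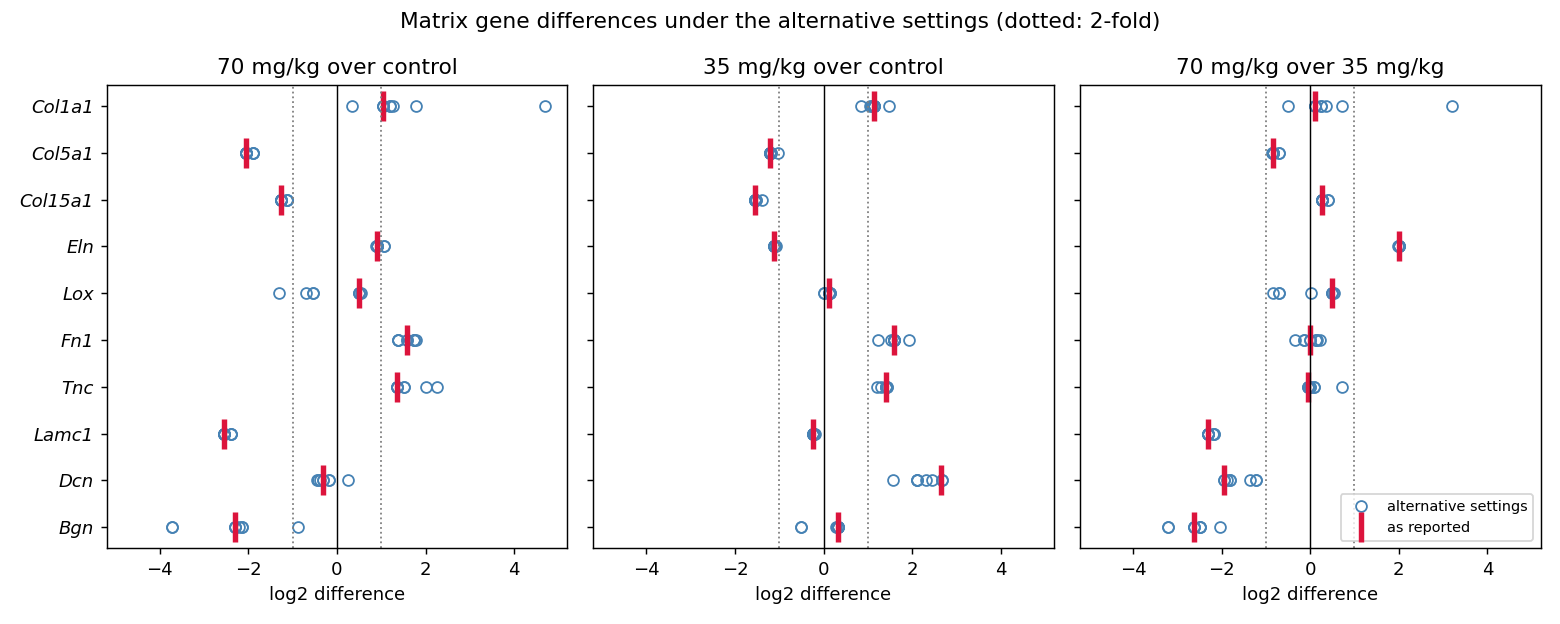
Log2 difference of each matrix gene as reported (red bars) and under the alternative settings that gave it a value (blue circles), with 2-fold dotted. Fn1, Tnc, Col5a1, Col15a1 and Lamc1 keep their side of 2-fold over control at 70 mg/kg, while Lox crosses 0 and Col1a1 spreads from 0.33 to 4.70.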

How the data were processed

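Per the file's values, the authors deposited linear-scale intensities, 1 for each probe set on each of 3 arrays, that were already alike in their mean after trimming 2% at both ends. Their software and scaling method are not named in the labels or the file. The 59 control probe sets of 8799 were dropped. Arrays were then multiplied by a constant to share the mean of their 3 medians (log2 shifts of 0.06 for control, 0.04 for 35 mg/kg, -0.09 for 70 mg/kg), and the floor was the 40th percentile. Names came from the platform annotation; 6985 of 7006 probe sets were found by gene ID in the GRCr8 gene table, with 0 symbols changed. A probe set under the floor on one array only is given as a bound against the floor. Having 1 array per group, the comparisons have no test, and precision is limited by how few arrays there are. The spread given is that between probe sets of a gene.

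The members and lists were chosen with earlier results of these data known. Beyond the members, the text names up to 3 listed genes per list. These have the largest difference for 70 mg/kg over control among genes whose measured probe sets share a sign. The text also names the 2 genes nearest to each of the 8 members whose measured probe sets share a sign in both comparisons with control. The second Pdgfra probe set, Lep and the marker sums without the brightest probe set of a list were picked after their values were seen. The calculation was run on simulated arrays with far less noise than these, where all probe sets of a changed gene shared its change. Only genes with a probe set well above the floor were changed, so the run checks the arithmetic and not the reliability of the values here. The 9 alternatives were 3 scalings, 3 floors (5th, 25th and 55th percentile), 2 summaries of probe sets, and plain-suffix probe sets only. Python 3.11.15, numpy 2.4.6 and pandas 2.3.3 were used.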

Additional observations from a re-analysis of the deposited data

How the results depend on the processing

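The matrix results were recomputed under 9 alternatives. Of 255 single-gene values, 240 moved by less than the median spread between probe sets of a gene, 15 moved by more, and no 2-fold difference changed sign. The 15 belong to Lox, Bgn, Col1a1 and Dcn. Lox at 70 mg/kg over control ran from -1.31 (floor at the 5th percentile) to 0.55 (quantile normalization). Bgn there was -0.89 with a floor at the 55th percentile and -3.71 on its brightest probe set, and Col1a1 was 4.70 on its brightest probe set and 0.33 with plain probe sets only, which leave 1 of its 4. With plain probe sets, which measure 7 of the 10 genes, the matrix median was -1.27 at 70 mg/kg and -0.51 at 35 mg/kg over control, and 1 gene was 2-fold higher at each dose. Tnc, Dcn and Lox then have no measured probe set. Between the doses the count of higher genes was 0 with the values as deposited, with a common trimmed mean and with a floor at the 55th percentile, where Eln drops out, and 2 with the brightest probe set. The other counts stayed within 1.5 times. The sign of the matrix median at 70 mg/kg over control depends on the setting, from -1.27 to 0.38, and so does that between the doses, from -0.70 (values as deposited) to 0.24 (quantile normalization). At 35 mg/kg over control it ran from -0.51 to 0.34, below 0 with plain probe sets and with the brightest probe set (-0.11). No paired analysis was possible because each group had 1 array. Signals near the floor limit the Eln value at 35 mg/kg, the fourth Dcn probe set and most Lox and Fn1 probe sets.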
